A study of Mus musculus with 8 samples.

Results

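The regions described here are smaller H3K27me3 peaks that lie beside, but not in, domains of H3K36 methylation in mouse mesenchymal progenitor cells. A listed H3K27me3 peak was taken if it was shorter than 40 kb, shared no base with a listed H3K36me2 or H3K36me3 peak, and lay at most 50 kb from the nearest of them. Of the 999 listed H3K27me3 peaks, 339 (33.9%) met this rule, and they cover 6.29 Mb. Among all 714 H3K27me3 peaks under 40 kb, another 335 lay farther than 50 kb from H3K36 methylation and 40 overlapped it. The other 285 peaks were 40 kb or longer. The 3 marks were measured by chromatin immunoprecipitation sequencing with a Drosophila spike-in (ChIP-Rx) in the C3H10T1/2 line, which was derived from C3H mouse embryos. Both cell populations carry a stable FLAG-HA-tagged transgene of histone H3.3. One encodes the K36M mutant, in which lysine 36 is methionine, and the other is wild type (WT). Cells of both genotypes were at passages 10 to 15. There was 1 library per mark and genotype. The sources used here do not give the promoter of the transgene or the number of clones.

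H3K27me3 is placed by Polycomb repressive complex 2 (PRC2) and marks silenced chromatin, often over developmental genes. H3K36me3 is placed by SETD2 along the bodies of transcribed genes, and H3K36me2, placed mostly by NSD enzymes, also covers stretches between genes. PRC2 works poorly on nucleosomes that already carry H3K36me2 or H3K36me3, so the marks tend to occupy separate stretches of chromatin. Histone H3 with K36M inhibits the H3K36 methyltransferases, and the study asked how that alters both kinds of methylation over the genome. Peaks that sit just outside an H3K36-methylated domain are places where both marks can be read side by side.

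The deposited values are reads per peak scaled to the spike-in, called normalized reads below. All values of a column were whole multiples of 1 step, 0.26 in K36M and 0.18 in WT for H3K27me3, and each step was read as the worth of 1 read. On that reading the 339 peaks held at least 41 reads in either library, with medians of 568 in K36M and 905 in WT. Intervals of single ratios are 95% Clopper-Pearson intervals from these reads and cover counting error alone. With 1 library per group there is no replicate check, so the genotypes are compared without a test or a p-value. The input libraries were not analysed here, so no ratio is corrected for input. In bulk chromatin, fewer cells with a mark and less mark per cell cannot be told apart.

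H3K27me3 in the 339 peaks was slightly lower in K36M cells on the spike-in scale. Summed over the peaks, the signal was 53779 normalized reads in K36M and 58157 in WT, a ratio of 0.925. Single peaks ranged from 10.7 to 447 normalized reads in K36M, with a median of 148, and from 16.0 to 440 in WT, with a median of 163. The median log2 ratio of K36M over WT was −0.12, with quartiles of −0.31 and 0.03. In 237 peaks (69.9%) the K36M value was below the WT value and in 102 it was above, against 62.5% lower over all 999 H3K27me3 peaks. The scaling bears on a shift of this size. If the deposited factors were rounded to 2 decimals, the median lies between −0.19 and −0.05, and with both libraries set to the same total it would be −0.05.

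The peaks differed from each other by more than counting error. The SD of their log2 ratios was 0.31, and counting error alone gives 0.09. Differences between cultures and between precipitations enter this spread as well and were not measured. Ratios ran from 0.352 to 1.89. A value in K36M at least 1.5-fold below WT was found in 22 of the 339 peaks (6.49%), against 8.11% of all H3K27me3 peaks. At least 1.5-fold higher were 6 (1.77%), against 3.40% of all. These shares lie near or below the background, so changes of that size were not more common beside H3K36-methylated domains than over the whole list. At 2-fold, 4 peaks (1.18%) were lower and 0 were higher, against 1.70% and 0.701% of all H3K27me3 peaks. Past a fold of 5/4, 83 of the 339 peaks were lower and 20 higher, against 20.9% and 8.71% of all. At this smaller fold the lower share was somewhat above that of all peaks and the higher share below it.

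**Figure D1:**
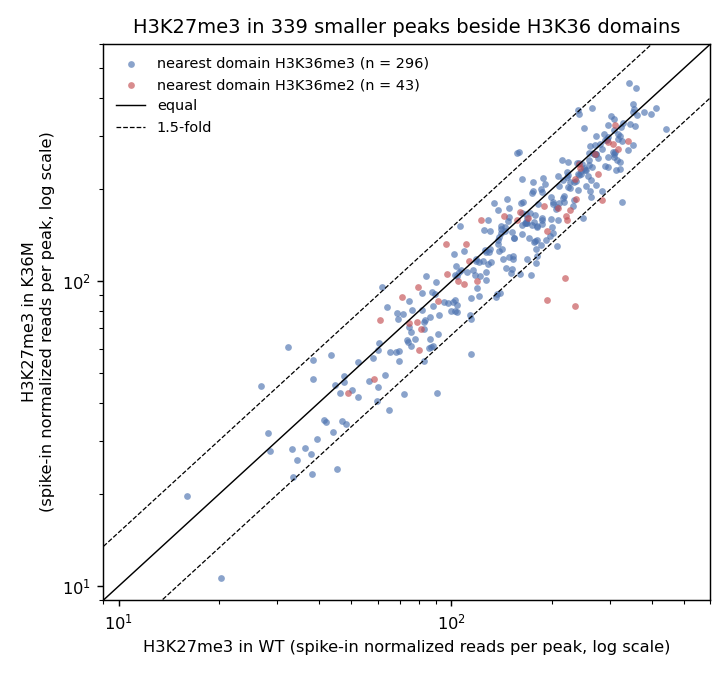
H3K27me3 of the 339 peaks in normalized reads per peak, K36M on the vertical axis and WT on the horizontal axis, both on log scales. Each point is 1 peak, red where the nearest domain is H3K36me2 and blue where it is H3K36me3. The points follow the line of equal values a little below it, and 22 of them lie on or under the lower 1.5-fold line against 6 on or over the upper one.

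Set beside the most similar regions, the peaks near H3K36 methylation were lower by a small amount. Their median log2 ratio of −0.12 compares with −0.07 in the 335 small peaks far from H3K36 methylation and −0.08 in the 285 wide peaks. The differences were −0.05 and −0.04, and neither sign held under all rules. With the gap limit at 100 kb or 200 kb, the near peaks were higher than the far ones by 0.03. Among peaks with a signal above the median of all H3K27me3 peaks, the difference from the wide peaks was 0.0034. The far set was more spread out, with an SD of 0.38, and in 41 of its 335 peaks (12.2%) K36M was at least 1.5-fold below WT. The 40 small peaks that share bases with an H3K36 domain stood apart from all of these, with a median log2 ratio of 0.40. Of these, 30 of 40 were higher in K36M, against 37.5% of all H3K27me3 peaks. Median signal per kb was 8.41 normalized reads in K36M and 9.30 in WT for the peaks described, 8.18 in K36M and 8.83 in WT for the far small peaks, and 12.6 in K36M and 10.8 in WT for the overlapping ones.

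The nearest domain was H3K36me3 for 296 peaks and H3K36me2 for 43 (12.7%), while H3K36me2 makes up 25.3% of the listed H3K36 peaks. In all there were 314 different neighbours, 39 of H3K36me2 and 275 of H3K36me3. Of these, 22 were shared by 2 or 3 peaks, so 47 peaks have a neighbour in common with another. The neighbours themselves resembled the rest of their marks. The H3K36me2 neighbours were 3.95-fold lower in K36M at the median, and the other H3K36me2 peaks 4.21-fold lower. The H3K36me3 neighbours were 3.26-fold lower, against 3.28-fold for the other H3K36me3 peaks. They had a median length of 32.4 kb, with 6.13 normalized reads per kb in K36M and 19.7 in WT.

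The median log2 ratio was −0.10 for the 43 peaks nearest H3K36me2 and −0.13 for the 296 nearest H3K36me3, a difference of 0.02. With the gap limit at 10 kb the difference was 0.17 and at 25 kb 0.11. Among peaks with a single mark within 50 kb it was −0.06, so neither its size nor its sign is settled. At least 1.5-fold lower were 4 of the 43 (9.3%) and 18 of the 296 peaks (6.08%), against 8.11% of all H3K27me3 peaks. At least 1.5-fold higher were 0 of the 43 and 6 of the 296 (2.03%), against 3.40% of all. The SD was 0.39 beside H3K36me2 and 0.30 beside H3K36me3, while the quartiles were close, −0.29 and 0.03 against −0.32 and 0.03.

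The lowest ratio of all 339 peaks belonged to a peak beside H3K36me2. This 23.8 kb peak, chr15:53628400-53652199, had 82.9 normalized reads in K36M and 236 in WT, a ratio of 0.352 (0.311 to 0.398). Its neighbour, 40.8 kb away, is a 5.8 kb H3K36me2 peak with 51.5 normalized reads in K36M and 309 in WT, a ratio of 0.167. That neighbour is also the H3K36me2 domain with the lowest ratio next to any of the 43 peaks. A 27.4 kb peak, chr11:111323000-111350399, had 102 normalized reads in K36M and 219 in WT, a ratio of 0.467 (0.416 to 0.524). Its H3K36me2 neighbour of 31.4 kb had a ratio of 0.247, close to the median of its mark. A 30.6 kb peak, chr2:112485200-112515799, had 185 normalized reads in K36M and 284 in WT, a ratio of 0.653 (0.597 to 0.713). The last of these 4, chr16:38845200-38867799, had 159 and 222, a ratio of 0.719 (0.651 to 0.793).

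These 4 peaks, which are the lowest among the stronger peaks beside H3K36me2, all lay 40.8 kb to 46.6 kb from their neighbour. Over all 43 peaks nearest H3K36me2, ratios did not fall steadily with distance, and only the farthest bin stood apart. Median log2 ratios were −0.05 up to 5 kb, −0.15 from 5 to 10 kb and −0.05 from 10 to 20 kb. From 20 to 35 kb the median was −0.12, and from 35 to 50 kb it was −0.42. Beside H3K36me3 the median was −0.24 up to 5 kb and −0.06 from 35 to 50 kb. Of the 43 peaks, 11 lay more than 35 kb away, on 7 chromosomes. Their ratios ran from 0.352 to 0.977, so 0 of 11 were higher in K36M, against 37.5% of all H3K27me3 peaks. All 4 of the peaks beside H3K36me2 that were at least 1.5-fold lower are among these 11. Among the other 32, with a median log2 ratio of −0.06, K36M was higher in 13. The nearest H3K36me3 peak was 111 kb away at the median for the 11 and 63.9 kb away for the 32. The limit of 35 kb comes from distance bins that were set with earlier results known, and 11 peaks are few.

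At the other end, the highest ratios among the stronger peaks beside H3K36me2 were close to 1. The highest was chr15:74462000-74495399, a 33.4 kb peak with 326 normalized reads in K36M and 309 in WT, a ratio of 1.05 (0.978 to 1.13). The next, chr4:128497800-128512599, had 169 and 161, a ratio of 1.05 (0.948 to 1.16). Both intervals include 1, as did those of the next peaks in order, chr17:14158600-14169999 with a ratio of 1.01 (0.909 to 1.12) and chr15:79383000-79409199 with 1.00 (0.921 to 1.09). The peaks of this kind with the strongest WT signal were chr12:74675000-74709399, with 289 normalized reads in K36M and 340 in WT, a ratio of 0.851 (0.790 to 0.917), and chr10:22766600-22798799, with 272 and 316, a ratio of 0.861 (0.797 to 0.930). Among all 43 peaks nearest H3K36me2, weaker ones included, the interval lay above 1 in 7 and below 1 in 17. The highest ratio among the 43 was 1.38, in a chromosome 16 peak described below.

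Beside H3K36me3, the lowest ratio among the stronger peaks was 0.558 (0.511 to 0.609), in chr15:87628000-87664999. This 37 kb peak had 182 normalized reads in K36M and 325 in WT, and its H3K36me3 neighbour 36.8 kb away had 244 and 910. The peak chr14:27493200-27511799 had 131 normalized reads in K36M and 208 in WT, a ratio of 0.629 (0.565 to 0.699), and lay 4.8 kb from an 87.8 kb H3K36me3 domain that was 3.82-fold lower. Next, chr2:25160800-25182599 had 161 and 248, a ratio of 0.650 (0.591 to 0.716), and chr5:29730000-29759199 had 197 and 283, a ratio of 0.698 (0.639 to 0.762). In each of the 4, counting error was small against the difference. The 2 peaks of this kind with the highest WT values were chr11:98162800-98196799, with 315 normalized reads in K36M and 440 in WT, and chr1:157566200-157602399, with 370 in K36M and 413 in WT.

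The 4 highest ratios among the stronger peaks beside H3K36me3 came from a single stretch of chromosome 10. The peak chr10:21925800-21938199 had 263 normalized reads in K36M and 157 in WT, a ratio of 1.68 (1.53 to 1.84). The peak chr10:21944400-21965399 had 365 and 241, a ratio of 1.52 (1.41 to 1.64). Next to them, chr10:22115800-22128399 had 265 and 160, a ratio of 1.65 (1.51 to 1.81), and chr10:22134600-22155599 had 353 and 241, a ratio of 1.47 (1.36 to 1.58). The arrangement is repeated along the chromosome. The left peaks of the 2 pairs are 12.4 kb and 12.6 kb long and start 190 kb apart, and the right peaks are both 21 kb long and start 190.2 kb apart. An H3K36me3 peak lies left of each pair, 15.8 kb and 12.4 kb away. These H3K36me3 peaks had ratios of 0.380 and 0.398, and H3K27me3 density in the 4 peaks was 16.8 to 21.2 normalized reads per kb in K36M and 11.5 to 12.7 in WT. The sources used here do not say how reads that match more than 1 place were handled, and whether the 2 pairs are separate measurements was not tested. Without the 4 peaks, 3 peaks of the 339 were at least 1.5-fold higher.

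The other 3 peaks that were at least 1.5-fold higher in K36M were short and held few reads. A 4 kb peak, chrX:4257600-4261599, had 60.8 normalized reads in K36M and 32.2 in WT, a ratio of 1.89 (1.55 to 2.31), the highest of all 339. A 3.6 kb peak, chr18:80526600-80530199, had 45.5 and 26.8, a ratio of 1.70 (1.36 to 2.13). The last, chr16:22888600-22897399, was 8.8 kb long and had 95.9 and 61.7, a ratio of 1.55 (1.34 to 1.81). All 3 intervals lay above 1.

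H3K27me3 was lower beside domains that had lost more H3K36 methylation. For each peak the neighbour's log2 ratio was set against the median of all listed peaks of its mark, −2.07 for H3K36me2 and −1.71 for H3K36me3. Where the neighbour lay below that median (153 peaks), the median H3K27me3 log2 ratio was −0.20. Where it lay above (186 peaks), the median was −0.06, a difference of −0.14. After chromosome medians were subtracted the difference was −0.09. At least 1.5-fold lower were 15 of the 153 (9.8%) and 7 of the 186 (3.76%), against 8.11% of all H3K27me3 peaks. At least 1.5-fold higher were 0 of the 153 and 6 of the 186 (3.23%), against 3.40% of all. No share lay far above that of all peaks. Both kinds of neighbour showed the same order, with medians of −0.32 in 14 peaks against −0.05 in 29 beside H3K36me2, and −0.20 in 139 against −0.06 in 157 beside H3K36me3. Where both marks deviated from their medians, they more often did so on the same side. In 107 peaks H3K27me3 and the neighbour were both below their medians and in 101 both were above, while in 46 the neighbour alone was below and in 85 the peak alone was.

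Splitting the peaks into 3 groups of near-equal size by the neighbour's ratio, within each mark, gave the same order. Beside the H3K36me3 neighbours with the lowest ratios, which were 3.67-fold lower at the median, the median H3K27me3 log2 ratio was −0.21, and 17 of 98 peaks (17.3%) were higher in K36M. Beside those in the middle it was −0.15, with 25 of 99 higher. Beside those with the highest ratios, 2.83-fold lower at the median, it was −0.01, and 47 of 99 (47.5%) were higher. Over all 999 H3K27me3 peaks 37.5% were higher, so the lowest and middle groups lay below that share and the highest group above it. Chromosome medians were not subtracted here, and the groups differed in their chromosomes. The lowest group held 22 peaks of chromosome 15 and 3 of chromosome 2, the highest group 2 and 17. Beside H3K36me2 the medians were −0.32 in the lowest group, −0.14 in the middle group and 0.01 in the highest group. Higher in K36M were 2 of 14, 3 of 14 and 8 of 15 of these peaks, against the same 37.5% of all.

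**Figure D2:**
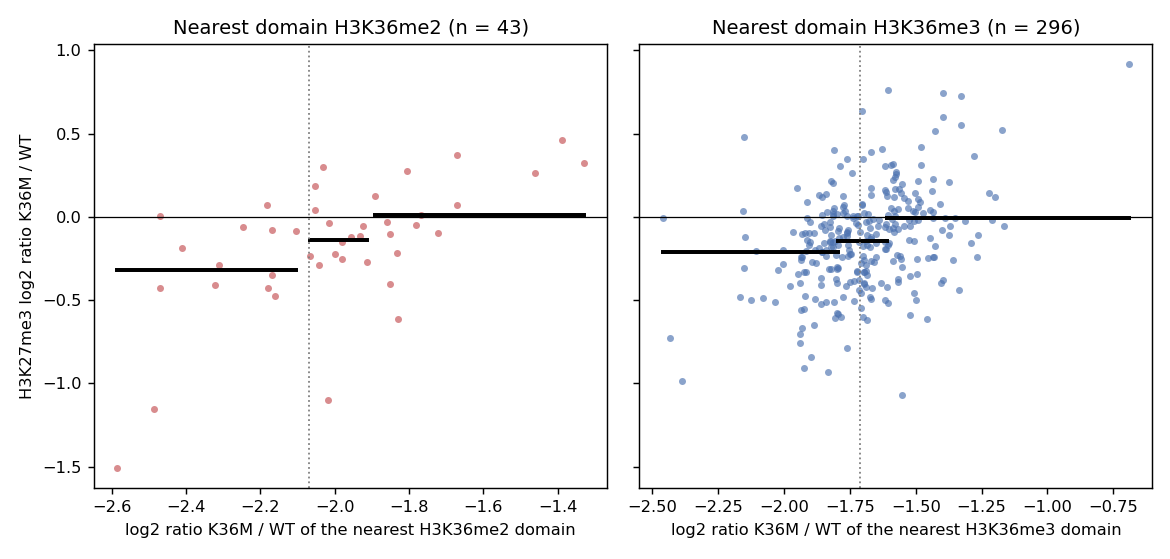
H3K27me3 log2 ratio of K36M over WT for each peak (vertical axis) against the log2 ratio of its nearest H3K36me2 domain (left, n = 43) or H3K36me3 domain (right, n = 296). Thick lines are medians over 3 groups of near-equal size by the neighbour's ratio, drawn over the range of each group, and dotted lines are the median of all listed peaks of that mark. From the lowest to the highest group the medians were −0.32, −0.14 and 0.01 on the left and −0.21, −0.15 and −0.01 on the right. Chromosome medians were not subtracted.

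As a description of this relation, the Spearman correlation between the log2 ratio of a peak and its neighbour's deviation was 0.36 and Pearson's r 0.42, over 339 peaks. The points share libraries, chromosomes and in part neighbours, and no p-value is given. With 1 point per neighbour the Spearman correlation was 0.36 over 314 neighbours. It was 0.51 for the 43 peaks beside H3K36me2 and 0.34 for the 296 beside H3K36me3. Part of the relation lay between chromosomes. When the chromosome median of each mark was subtracted from both ratios, the Spearman correlation was 0.24 in all, 0.50 beside H3K36me2 and 0.20 beside H3K36me3. Within single chromosomes of at least 20 peaks, the Spearman correlation ran from −0.01 on chromosome 5 and 0.07 on chromosome 2 to 0.38 on chromosome 17. Leaving out any 1 chromosome kept the Spearman correlation between 0.34 and 0.38 and the difference between both groups of peaks between −0.15 and −0.11.

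The relation was not confined to short distances or to these peaks. The Spearman correlation was 0.35 over the 137 peaks within 10 kb of their neighbour and 0.36 over the 202 farther away. In the 335 small peaks over 50 kb from H3K36 methylation it was 0.24, and in the 269 wide peaks without overlap 0.34, with no test of the differences. After chromosome medians were subtracted it was 0.24 in the 339 peaks, 0.16 in the far small peaks and 0.27 in the wide peaks. Neither the length nor the WT density of the H3K36me3 neighbour went with the H3K27me3 ratio, with a Spearman correlation of 0.02 and 0.0011 over 296 peaks.

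The peaks whose neighbours deviated most show this relation and its exceptions. Among the 275 H3K36me3 neighbours, the one with the lowest ratio, 0.182, lies 45 kb from chr1:182402000-182423799, where H3K27me3 was 215 normalized reads in K36M and 216 in WT, a ratio of 0.996 (0.911 to 1.09). So here a large H3K36me3 loss went with equal H3K27me3. The next neighbour, with a ratio of 0.185, lies 18.2 kb from chr1:66510600-66535999, which had 105 normalized reads in K36M and 173 in WT, a ratio of 0.604 (0.537 to 0.680). A 122 kb H3K36me3 domain with a ratio of 0.191 lies 44.6 kb from chr9:32167000-32180999, which had 57.7 and 114, a ratio of 0.506 (0.432 to 0.590). The remaining one of these 4 is the chromosome 15 peak with the lowest ratio of all, described above.

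Beside the neighbours with the highest ratios relative to their mark, all 4 peaks chosen were higher in K36M. These neighbours were themselves lower in K36M. The H3K36me3 domain beside the chromosome X peak had a ratio of 0.620, with 132 normalized reads in K36M and 213 in WT, and lies 3 kb from it. Near the low-numbered end of chromosome 16, chr16:3286000-3303199 had 133 normalized reads in K36M and 96.1 in WT, a ratio of 1.38 (1.22 to 1.56), and chr16:3168400-3180399 had 88.7 and 70.9, a log2 ratio of 0.32 and an interval of 1.08 to 1.45 for the ratio. Their H3K36me2 neighbours had ratios of 0.383 and 0.398. The last, chr11:120890400-120900799, had 133 and 110, a ratio of 1.20 (1.07 to 1.35), 7.2 kb from an H3K36me2 peak with a ratio of 0.363. All 4 intervals lay above 1.

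H3K27me3 ratios were lower within 10 kb of H3K36me3 than farther from it. Over all 339 peaks, the median log2 ratio was −0.20 in the 137 within 10 kb of the nearest domain and −0.09 in the 202 beyond 10 kb, a difference of −0.11. By bins of distance the medians were −0.22 up to 5 kb, −0.19 from 5 to 10 kb, −0.10 from 10 to 20 kb, −0.07 from 20 to 35 kb and −0.09 from 35 to 50 kb. Split at 5 kb instead of 10 kb, the difference was −0.12. K36M values were higher in 19 of 82 peaks (23.2%) in the first bin and in 30 of 79 (38.0%) between 20 and 35 kb. Over all H3K27me3 peaks the share was 37.5%, close to that between 20 and 35 kb. Beside H3K36me3 the medians were −0.23 in 123 peaks within 10 kb and −0.07 in 173 beyond. Beside H3K36me2 the order was reversed, with −0.06 in 14 peaks within 10 kb and −0.19 in 29 beyond, which include the 11 low ones described above.

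In K36M, peaks within and beyond 10 kb had almost the same median density, 8.36 and 8.44 normalized reads per kb, while in WT those within had 9.71 and those beyond 9.02. Since WT is also the denominator of the ratio, peaks were split by the mean of both genotypes instead. The difference between the peaks within and beyond 10 kb was −0.14 in those of lower mean density and −0.07 in those of higher mean density. After chromosome medians were subtracted these were −0.10 and −0.12, so the order of the 2 density groups turned. Over all 339 peaks the difference was then −0.08, and without chromosome 15, with no subtraction, −0.11. The 134 wide peaks at these distances had medians of −0.11 within 10 kb and −0.02 beyond, a difference of −0.09. Split by both distance and the neighbour's ratio, the lowest median was −0.30 in 68 peaks within 10 kb of a neighbour below its median, and the highest −0.03 in 117 peaks beyond 10 kb of a neighbour above its median. The 2 other combinations had −0.11 within 10 kb and −0.14 beyond. Distance and the neighbour's ratio were hardly related to each other, with a Spearman correlation of 0.02.

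**Figure D3:**
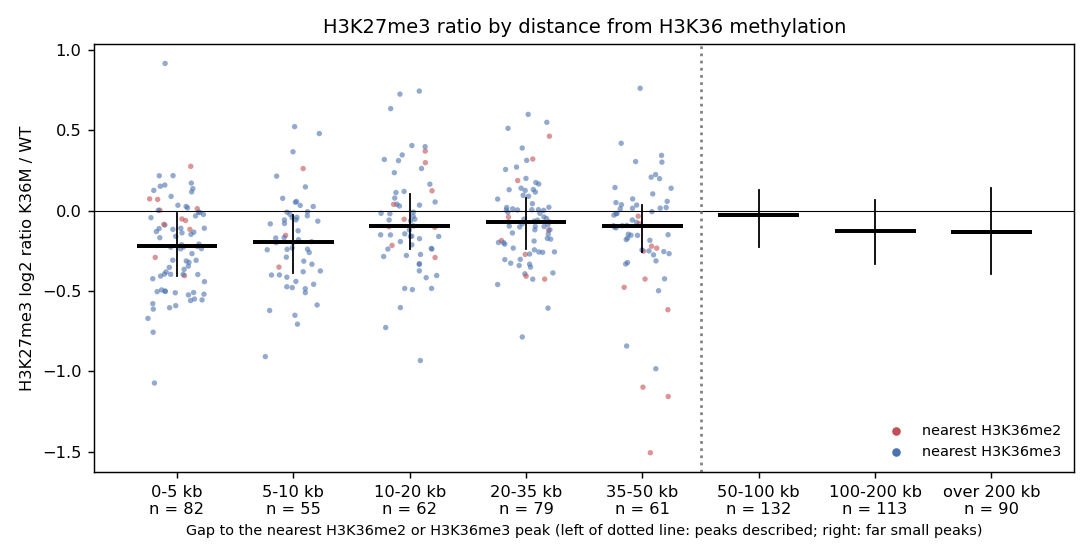
H3K27me3 log2 ratio of K36M over WT (vertical axis) by the gap to the nearest H3K36me2 or H3K36me3 peak (horizontal axis, bins). Points left of the dotted line are the 339 peaks, red beside H3K36me2 and blue beside H3K36me3, and thick and thin lines are medians and interquartile ranges. Medians up to 10 kb lie near −0.2, those from 10 to 50 kb between −0.10 and −0.07, and those of small peaks farther away between −0.13 and −0.03.

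The 4 peaks closest to a domain had ratios from 0.592 to 1.09. In the whole bin up to 5 kb, K36M was higher in 19 of 82 peaks, against 37.5% of all H3K27me3 peaks. The peak chr4:128497800-128512599 abuts its H3K36me2 neighbour with a gap of 0 bp and had a ratio of 1.05, while the neighbour had 347 normalized reads in K36M and 1107 in WT. The 7 kb peak chr15:76398200-76405199, 600 bp from an H3K36me3 domain, had 42.6 normalized reads in K36M and 72 in WT, a ratio of 0.592 (0.491 to 0.712). Also 600 bp from its neighbour, chr17:7167000-7181799 had 209 normalized reads in K36M and 191 in WT, a ratio of 1.09 (0.995 to 1.20). The peak chr11:118316600-118336599, at 800 bp, had 179 and 181, a ratio of 0.985 (0.892 to 1.09). The intervals of 3 of these 4 include 1, and that of the chromosome 15 peak lies below 1.

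**Figure D4:**
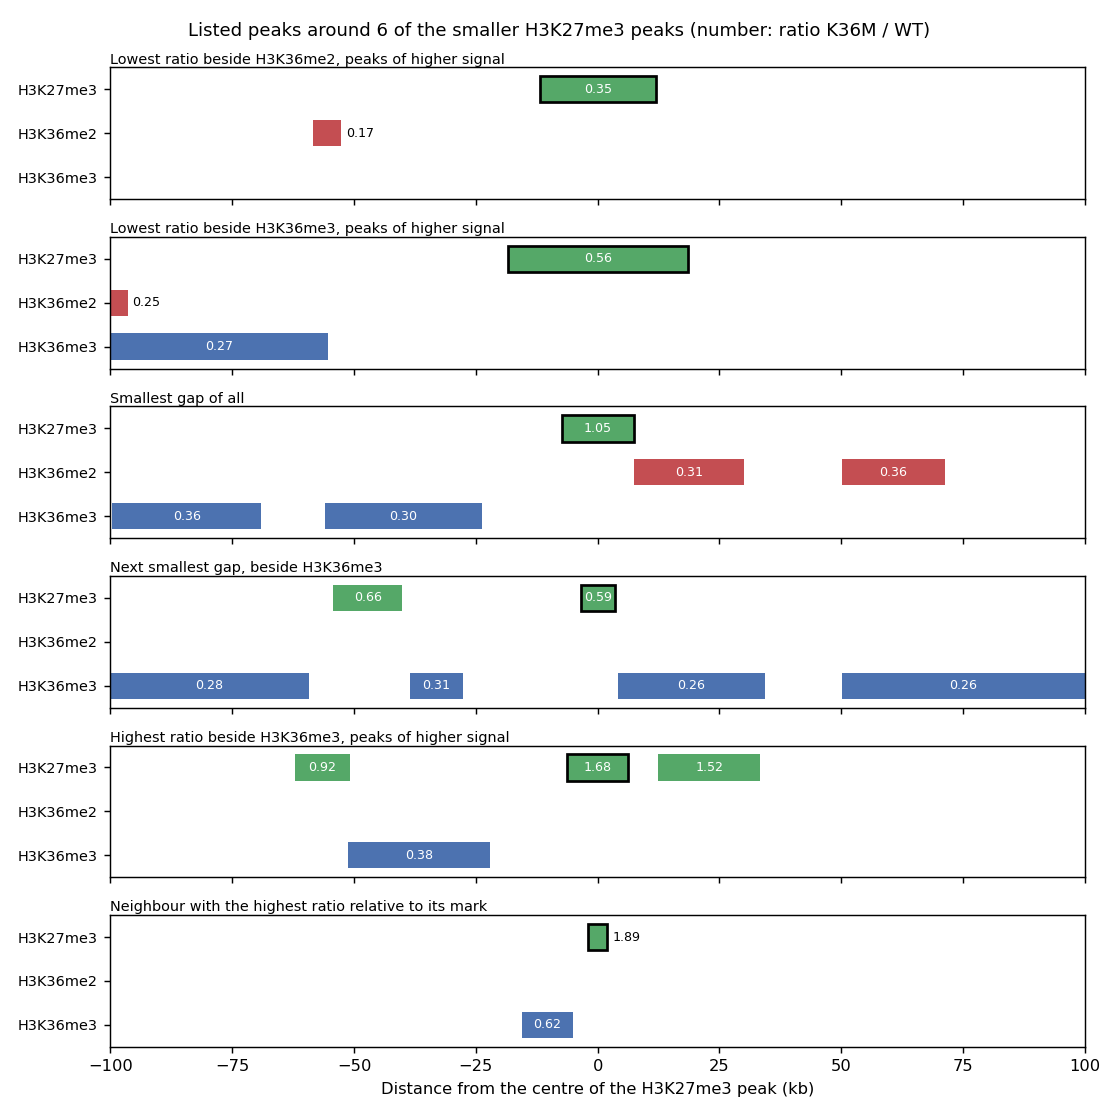
Listed peaks of the 3 marks within 100 kb of the centre of 6 of the H3K27me3 peaks (outlined in black), drawn to scale, with the ratio of K36M over WT of each peak beside or inside it. In the panel titles, peaks of higher signal are those whose mean over K36M and WT reaches the median of the 339. The outlined peaks had ratios from 0.35 to 1.89, while all H3K36me2 and H3K36me3 peaks drawn had ratios of 0.17 to 0.62.

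H3K36 methylation within 50 kb was found on both sides of 70 peaks and on 1 side of 269. The median log2 ratio was −0.19 in peaks flanked on both sides and −0.11 in those flanked on 1 side. At least 1.5-fold lower were 8 of the 70 (11.4%) and 14 of the 269 peaks (5.2%), against 8.11% of all H3K27me3 peaks. At least 1.5-fold higher were 0 of the 70 and 6 of the 269 (2.23%), against 3.40% of all. The doubly flanked peaks were also shorter, 13.5 kb against 18.6 kb, and closer to their neighbour, 6.4 kb against 19.6 kb at the median. The part of length and distance in this difference was not tested. In 19 of the 70 both flanking domains were below the median of their mark, and the median H3K27me3 log2 ratio there was −0.36. In 32 with 1 flank below and the other above it was −0.16, and in the 19 with both above it was −0.02.

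The ratios also varied between chromosomes. Chromosome 15 held 39 of the peaks, with a median log2 ratio of −0.28. Of these, 34 were lower in K36M and 7 at least 1.5-fold lower, against 62.5% and 8.11% of all H3K27me3 peaks. The neighbours of 28 of these 39 were below the median of their mark. Chromosome 2 held 41 peaks with a median of 0.01, of which 13 had a neighbour below its median. In 22 of the 41 K36M was higher, against 37.5% of all H3K27me3 peaks. So chromosome 15 lay below the median of all H3K27me3 peaks, −0.08, and chromosome 2 above it, with values near equal in both genotypes. The median deviation of the neighbours was −0.14 on chromosome 15 and 0.06 on chromosome 2. The ratios are not corrected for input, and the cause of such chromosome differences was not tested. On chromosome 11 the median was −0.22 over 34 peaks, on chromosome 17 −0.01 over 31 and on chromosome 10 −0.06 over 32. All 5 peaks on chromosome 9 and 17 of 18 on chromosome 14 were lower in K36M, against 62.5% of all H3K27me3 peaks. The 80 other H3K27me3 peaks on chromosome 15 were also low, with a median of −0.19, and the 80 others on chromosome 2 had a median of −0.01. Differences of either sign were found on further chromosomes. On chromosome 5 it was −0.23 in 21 of the peaks described and −0.01 in the 44 others, and on chromosome 8 −0.15 in 27 and 0.08 in 40. On chromosome 10 the order was the opposite, with −0.06 in 32 peaks and −0.11 in 41. Without chromosome 15 the median of the remaining 300 peaks was −0.10.

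**Figure D5:**
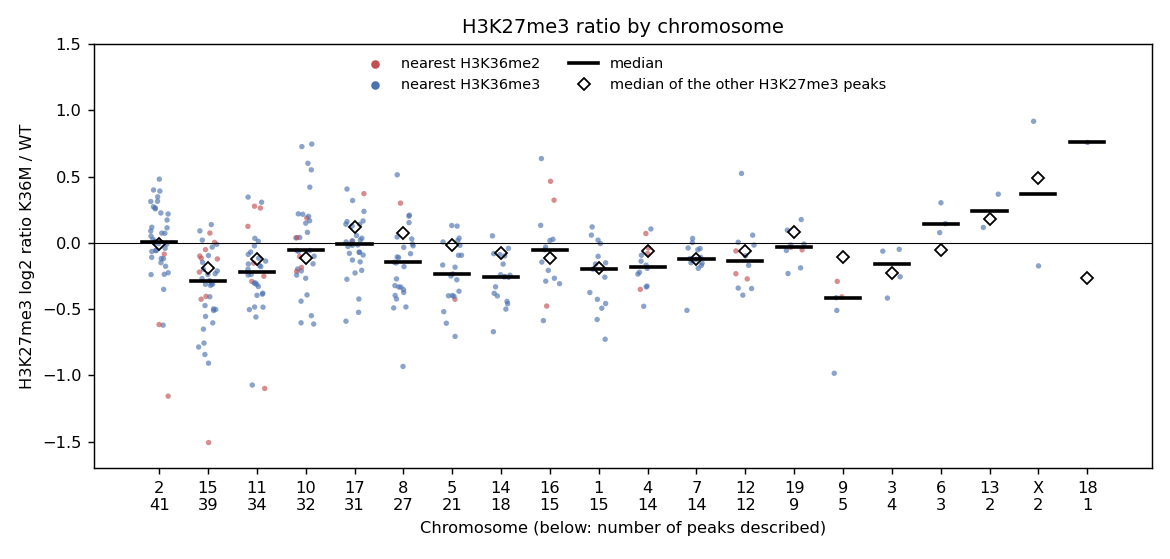
H3K27me3 log2 ratio of K36M over WT (vertical axis) for each of the 339 peaks by chromosome, ordered by the number of peaks, which is written below each chromosome. Thick lines are medians and open diamonds are the medians of the other listed H3K27me3 peaks of that chromosome. Chromosome 15 lies lowest among the chromosomes with more than 20 peaks, with a median of −0.28, and chromosome 2 highest, with 0.01.

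The spread of the ratios was smaller in longer peaks, while their level followed no steady order with length. Among 4 groups of near-equal number by length, the shortest peaks, from 1.4 to 10.4 kb, had a median log2 ratio of −0.24 and an SD of 0.36, of which counting error would give 0.13. Peaks from 10.4 to 17.4 kb had a median of −0.06 and an SD of 0.32, and those from 17.4 to 26 kb had −0.13 and 0.31. In the longest peaks, from 26 to 39.4 kb, the median was −0.09 and the SD 0.23, with 0.06 from counting. At least 1.5-fold lower were 9 of the 85 shortest and 3 of the 85 longest peaks, against 8.11% of all H3K27me3 peaks. The shortest peaks also lay closest to H3K36 methylation, with a median gap of 9.8 kb against 18.2 kb for the longest. In 4 such groups by mean density the medians ran from −0.17 in the sparsest to −0.09 in the densest.

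Single peaks on both sides of the limits of the rule had similar ratios, but single peaks cannot show whether values there are alike in general. The longest peak inside the length limit, chr8:47344000-47383399 with 39.4 kb, had 294 normalized reads in K36M and 316 in WT, a ratio of 0.929. The shortest outside it at these distances, chr15:77267000-77307399 with 40.4 kb, had 496 and 544, a ratio of 0.911. At the gap limit, chr2:33372600-33405399 lay 50 kb from its neighbour and had a ratio of 1.01, and chr12:107194800-107200199 lay 50.4 kb from its neighbour and had a ratio of 0.990.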

How the data were processed

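The authors deposited 1 table per mark with a signal for each peak and genotype, the reads in the peak scaled to a Drosophila spike-in (chromatin equal to 5% of the mouse chromatin), per the file headers and the labels. The submitters' processing notes name Bowtie 1.0.0, mm9 and dm6, and coordinates are read as mm9. The sources used here do not give the peak caller or the formula of the factors. Starts are multiples of 200 bp, as in windows counted from 0, and coordinates are printed as deposited, so a start plus 1 is its browser position. No mm9 gene table or genome was used here, so no peak has a gene name or sequence.

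Gaps are the bases between 2 peaks. Ratios are K36M over WT without a pseudocount. The series has 8 samples, and the 2 input samples were not analysed here. Members, limits, lists and folds were chosen with earlier results of these data known. For each nearest mark, the named regions were the 4 lowest and 4 highest ratios and the 2 highest WT values among peaks whose mean over K36M and WT reached the median. To these were added the 4 smallest gaps, the 4 lowest and 4 highest neighbour deviations and the peaks at the limits. Peaks at least 1.5-fold higher, and the block on chromosome 10, were named after their values were seen. Alternatives covered pseudocount, signal filter, scaling, chromosomes, limits, fold and choice of neighbour. The calculations were tested on simulated data. Python 3.11.15, numpy 2.4.6, pandas 2.3.3 and scipy 1.17.1 were used.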

Additional observations from a re-analysis of the deposited data

How the results depend on the processing

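No paired analysis was possible because each group has 1 library, and no replicate could be left out. Of 86 alternative values of the main results, 57 moved by less than the margin set for them (for counts, 1.5 times). The cause of the other changes was not tested, beyond fewer peaks in narrower sets. The median log2 ratio of −0.12 was −0.050 with both libraries at the same total, −0.20 with a gap limit of 10 kb, and between −0.19 and −0.051 for rounded factors. The 22 lower and 6 higher peaks were 4 and 0 at 2-fold, 83 and 20 past a fold of 5/4, 6 and 2 with a pseudocount of 41.0 normalized reads, and 6 and 3 among the 170 stronger peaks. The lower count was 13 at the same total and 13 at the upper end of rounding, and the higher count was 3 without the chromosome 10 block. Against far small peaks the difference of −0.05 reversed to 0.030 with the limit at 100 kb and 0.031 with 200 kb, and was −0.12 with 10 kb. Against wide peaks the −0.04 was −0.12 at 10 kb and reversed to 0.0034 among stronger peaks. The 0.02 between nearest H3K36me2 and H3K36me3 was 0.17 at 10 kb and 0.11 at 25 kb, and reversed to −0.064 with a single mark within the limit and −0.016 by longest neighbour. The −0.14 by neighbour ratio was −0.20 between the outer groups of 3 and −0.27 beside H3K36me2. It was −0.09 after chromosome medians were subtracted. The Spearman correlation of 0.36 was 0.24 after that subtraction and 0.51 beside H3K36me2. The −0.11 between peaks within and beyond 10 kb reversed to 0.13 beside H3K36me2. Rounding, the chromosome 10 block and the split at 10 kb were added after the data were seen. Error between cultures was not measured.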

Other observations

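The peaks were also set beside the nearest other H3K27me3 peak. Of the 339 peaks, 100 had another listed H3K27me3 peak within 50 kb, of any length or class. Across those 100, the Spearman correlation between the log2 ratio of the peak and of that other peak was 0.64, and 0.57 after chromosome medians were subtracted. The correlation of the same 100 peaks with their H3K36 neighbour was 0.43. In the 239 peaks with no other H3K27me3 peak within 50 kb, the Spearman correlation with the nearest one was 0.27, and 0.16 after that subtraction, while the Spearman correlation with the H3K36 neighbour was 0.33. The median absolute difference of log2 ratios between a peak and the nearest other H3K27me3 peak was 0.17 within 50 kb and 0.23 beyond. These values are descriptions without a test. The 100 peaks include 26 pairs that are nearest to each other and so enter from both sides, and peaks of 1 library share its errors.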
